A study of Mus musculus with 12 samples.

Results

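Glycolysis splits glucose into pyruvate through a fixed chain of enzymes, and naive T cells that are activated take up more glucose and pass much of the pyruvate on to lactate. Glucose enters through the transporters Slc2a1 and Slc2a3, is trapped by hexokinases, is committed by phosphofructokinase, and leaves the cell as lactate through Slc16a1 and Slc16a3. Myc and Hif1a are the transcription factors best known for driving these genes in activated T cells, Myc with Max at E-boxes and Hif1a with Arnt at hypoxia response elements. The accessibility of chromatin around 32 genes of this set was described here: the transporters, the enzymes from hexokinase to lactate dehydrogenase, the pyruvate dehydrogenase kinases Pdk1 and Pdk3, Hif1a and Myc. The members were chosen by name, and each gene was taken with 20 kb on each side of its body in GRCm38. Of 110642 merged regions that held a peak in at least 1 library, 288 lay in these windows, and no region was shared by a pair of members. A region is tied to a gene by position only.

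The data were 12 ATAC-seq peak lists from C57BL/6J mouse spleen CD4+ T cells, with 2 libraries in each of 6 groups. ATAC-seq marks open chromatin by where a transposase can insert. Naive cells were isolated by negative selection, and Th1 and Th2 cells were naive cells cultured for 6 days with anti-CD3 and anti-CD28, with IL-12 and IL-2 for Th1 and with IL-4 and an antibody to interferon gamma for Th2. Each state came from wild type mice and from mice labelled ETS1-SE-KO, which lack a super-enhancer at the Ets1 locus, here called knockout. The naive titles number 1 biological sample per genotype with 2 technical replicates, so the spread between naive libraries is technical. The titles of both Th2 knockout libraries say Th1, whereas their source name says Th2, and they were grouped by the source name. Those titles also number them technical replicate 2 of biological samples 1 and 2. Read by title alone, they would be second technical replicates of the Th1 knockout samples. Of 8347 regions with a peak in both wild type Th2 libraries and neither wild type Th1 library, these 2 libraries held 79.6% and 73.1%, whereas the Th1 knockout libraries held 32.8% and 27.0%.

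Lists held 34746 to 56357 peaks, of which 105 to 173 regions per library lay around the member genes. The median deposited −log10 q was 4.93 to 9.78 in naive lists and 3.39 to 4.14 in polarized lists, and the median width was 387 to 420 bp. Peak names in the naive lists carry another run tag than those in the polarized lists, so cell state and whatever that tag marks cannot be told apart. Read depth is unknown, since the lists give peaks only. The 6 T cell markers all had a peak nearby in every group. Summed over the 6 Th2 markers, the regions with a peak within 2 kb of the genes numbered 8 to 11 in naive, 8 to 11 in Th1 and 16 to 19 in Th2 libraries, with Il4, Il5 and Il13 at 0 in naive libraries and Gata3 at 6 to 7 in naive and 5 in Th2 libraries. The 6 Th1 markers did not separate the groups, at 15 to 19 in naive, 17 to 26 in Th1 and 17 to 19 in Th2 libraries, and Ifng was at 0 in all Th2 libraries. Over the 6 B cell markers the sum was 3 to 5 in naive wild type, 11 to 12 in naive knockout and 1 to 4 in polarized libraries, and over the 6 myeloid markers 8 to 12 in naive and 2 to 5 in polarized libraries. Lyz2 and Fcgr1 had none in any group, and Cd79b and Ms4a1 had a peak only in the naive knockout group. Their part in the results that follow was not tested.

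With 2 libraries against 2, an exact two-sided permutation test cannot go below a p of 0.333, and peak scores are comparable only within a list, so no test was run. A region was called where every library of one side had a peak and no library of the other side did, and the share is of the regions with a peak in every library of the side that needs one. The same share over all regions is given beside it. Strength is the percentile of a peak's deposited −log10 q within its own list, with 100 the strongest.

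The promoters of 6 members are printed because the values below turn on them: Slc2a1, Pfkfb2, Pfkfb3 and Pgk1 kept naive and polarized libraries apart by rank, Pgam1 moved in opposite directions in Th1 and Th2 cells, and Ldha, the lactate dehydrogenase subunit of glycolytic cells, held the most motif matches of the 6. They were picked after the region values were seen. Each is the 250 bases before a RefSeq start site on the gene's own strand (GRCm38.p6), at chr4:119108495-119108744 (plus), chr1:130715822-130716071 (minus), chr2:11553930-11554179 (minus), chrX:106186850-106187099 (plus), chr19:41911621-41911870 (plus) and chr7:46845554-46845803 (plus) in that order. Capitals mark ACGTG, the core of the hypoxia response element, or CACGT, the same letters read on the other strand, and CACGTG, the E-box, holds both. Pfkfb2, Pfkfb3 and Ldha have other start sites, whose windows are not printed. Over both strands, those windows held 0 and 1 matches of ACGTG at Pfkfb2, 2 at Pfkfb3 and 0 at Ldha.
Slc2a1: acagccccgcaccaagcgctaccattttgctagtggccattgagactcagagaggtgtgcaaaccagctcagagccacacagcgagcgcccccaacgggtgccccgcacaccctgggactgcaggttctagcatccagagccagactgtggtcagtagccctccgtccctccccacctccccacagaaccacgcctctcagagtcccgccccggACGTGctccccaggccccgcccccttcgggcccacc
Pfkfb2: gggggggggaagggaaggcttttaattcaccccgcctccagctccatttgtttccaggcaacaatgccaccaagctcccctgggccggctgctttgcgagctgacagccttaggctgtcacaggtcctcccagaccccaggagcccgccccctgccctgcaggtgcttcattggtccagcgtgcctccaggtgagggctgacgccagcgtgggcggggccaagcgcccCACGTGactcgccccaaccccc
Pfkfb3: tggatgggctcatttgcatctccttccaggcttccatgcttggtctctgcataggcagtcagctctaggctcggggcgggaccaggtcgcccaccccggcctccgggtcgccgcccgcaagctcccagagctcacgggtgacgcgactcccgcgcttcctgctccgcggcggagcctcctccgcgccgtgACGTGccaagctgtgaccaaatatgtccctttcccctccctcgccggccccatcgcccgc
Pgk1: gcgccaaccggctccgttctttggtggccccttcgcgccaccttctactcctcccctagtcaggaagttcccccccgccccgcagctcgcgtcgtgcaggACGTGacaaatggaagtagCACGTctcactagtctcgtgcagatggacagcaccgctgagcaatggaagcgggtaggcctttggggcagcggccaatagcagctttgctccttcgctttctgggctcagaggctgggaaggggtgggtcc
Pgam1: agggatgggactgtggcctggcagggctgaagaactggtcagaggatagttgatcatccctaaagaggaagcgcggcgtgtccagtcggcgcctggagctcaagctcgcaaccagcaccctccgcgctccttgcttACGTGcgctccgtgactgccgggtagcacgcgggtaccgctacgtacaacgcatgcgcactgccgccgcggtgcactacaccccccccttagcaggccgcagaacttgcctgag
Ldha: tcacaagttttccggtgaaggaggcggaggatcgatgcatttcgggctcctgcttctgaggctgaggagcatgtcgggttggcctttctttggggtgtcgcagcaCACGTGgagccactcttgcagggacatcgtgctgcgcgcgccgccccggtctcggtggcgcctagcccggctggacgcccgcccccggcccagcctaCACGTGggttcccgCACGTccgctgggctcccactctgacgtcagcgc
Over the 250 bases before all start sites, ACGTG on either strand occurred at 15 of the 30 member genes with a promoter sequence (50.0%) and at 20.2% of 17274 genes. CACGTG occurred at 6 of 30 against 7.70%, and these matches are also counted under ACGTG. The ETS motif CCGGAAG occurred at 2 of 30 (6.67%) against 10.3%. A gene counts here if any of its start sites has a match, and the 30 genes have 48 windows against 21045 for 17274 genes. Counted by window, ACGTG occurred at 39.6% of member windows against 17.9%. CACGTG occurred at 12.5% of them against 6.70%, and CCGGAAG at 4.17% against 9.08%. No promoter sequence was matched for Slc2a3 and Myc. A match describes the letters in the window and does not show binding.

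Most member promoters were open in every library. Of 30 regions at a member's own promoter, 27 had a peak in all 12 libraries, and these belonged to 25 genes. Open promoters were common beyond the members: of 10873 regions at any promoter, 6958 at protein-coding genes had a peak in all 12 libraries. The exceptions among the member promoters were Aldoc and Eno2, aldolase and enolase forms best known from neurons, each with a peak in 11 libraries, and Slc16a3, a lactate exporter, with a peak in 4. Hk3, a hexokinase of myeloid cells, and Eno3, the muscle enolase, had no region at a promoter. Away from the members' own promoters the regions were less constant: 29 lay at a promoter of another gene, 113 elsewhere in a gene body and 116 in a flank, and 57 of the 288 had a peak in 1 library only. Of member regions, 24.0% were open in all 12 libraries against 13.2% of all regions, and 20.5% lay at a promoter against 9.83%. At least 1 region was open in all 12 libraries at 31 of the 32 genes.

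Between naive and polarized cells, 9 regions at 8 member genes opened in all 8 polarized libraries, of 82 with a peak in all 8, against 27.6% of all such regions. They lay at Slc2a1, Slc2a3, Hk2, Pfkp, Pfkfb3, Pfkfb4, Pgam1 and Myc, and none was at a promoter. In the other direction 11 regions at 10 genes closed, of 111 with a peak in all 4 naive libraries (9.91%, against 18.6% of all such regions). They lay at Slc2a1, Slc2a3, Hk2, Bpgm, Eno2, Eno3, Ldha, Ldhb, Pdk1 and Hif1a. Outside promoters, in a comparison added after the data were seen, 25.7% of member regions opened against 38.8% of regions near protein-coding genes, and 16.7% closed against 23.6%. Without the 2 libraries with conflicting labels, 9 of 83 opened and 12 of 111 closed. When each list was cut to its strongest 34746 peaks, 7 of the 9 opened regions were called, all but those at Pfkfb4 and Myc, and 8 of the 11 closed regions, all but those at Slc2a1, Slc2a3 and Hk2.

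**Figure D1:**
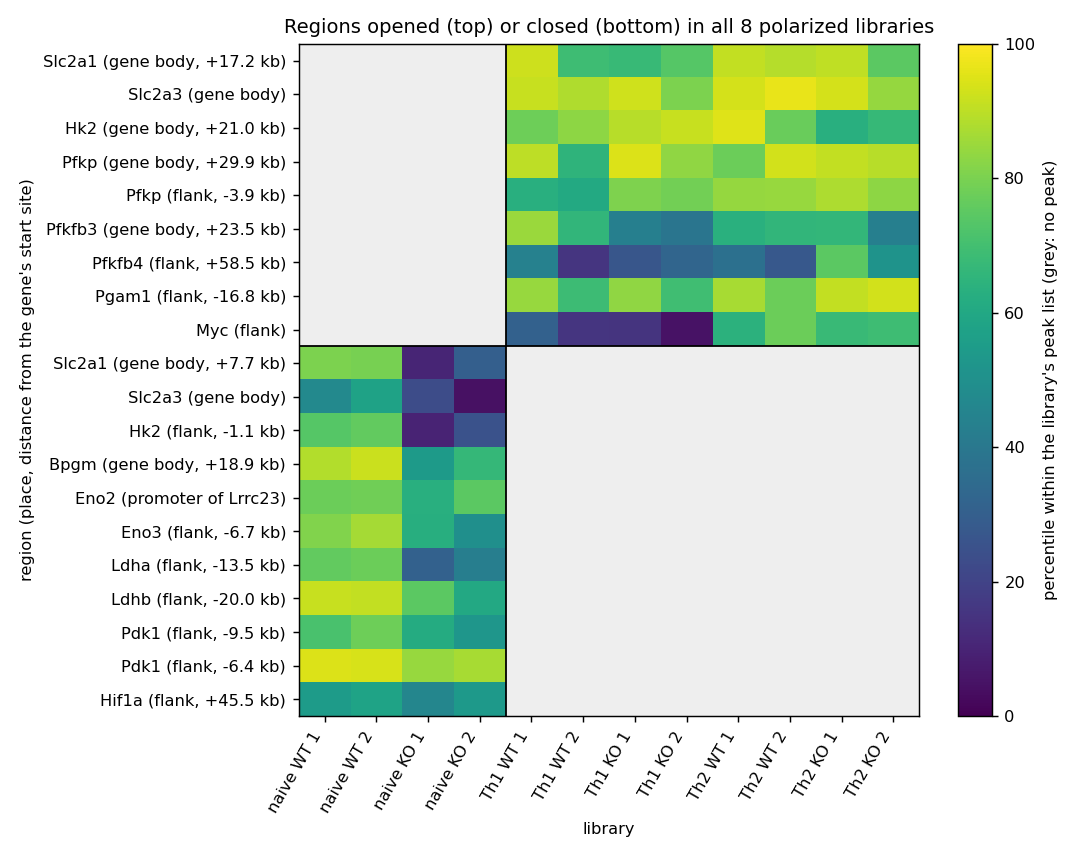
Percentile of each region's peak within its library's list (colour, 0 to 100; grey, no peak) for the 9 regions opened (above the line) and the 11 closed (below) in all 8 polarized libraries; rows are regions with their distance from the nearest start site of the gene in kb, columns the 12 libraries. The opened region of Slc2a3 ranks at 80.1 or above in every polarized library, whereas the closed regions of Slc2a1 and Hk2 are weaker in naive knockout than in naive wild type libraries.

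Both glucose transporters held an opened and a closed region inside the gene body. Slc2a1, the transporter known as GLUT1, opened at chr4:119125453-119126420, 17.2 kb downstream of its start site. That peak stood at percentiles 92.4 and 69.1 in Th1 wild type, 67.5 and 73.7 in Th1 knockout, 91.0 and 88.9 in Th2 wild type and 90.3 and 74.8 in Th2 knockout libraries, with no peak in any naive library. The neighbouring region at 18.7 kb was the stronger in naive cells, at 87.8 to 92.7 in the 4 naive libraries and 11.9 to 53.3 in 6 polarized libraries and no peak in the other 2. Another region, chr4:119116259-119116665, closed, from 80.4 and 79.3 in the wild type and 10.2 and 30.1 in the knockout naive libraries. In Slc2a3, which encodes the high-affinity transporter GLUT3, the opened region at chr6:122758486-122759203 ranked from 80.1 to 96.7 across the 8 polarized libraries. The closed region at chr6:122743251-122743680 was of middle or low rank, at 46.9 and 57.6 in the wild type and 23.4 and 4.6 in the knockout naive libraries.

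Hk2, the hexokinase that activated T cells induce, had the most opened calls of any member, 15 over the 4 comparisons of Th1 or Th2 with naive cells. Libraries held 4, 4, 4 and 5 Hk2 regions in naive cells, 8, 8, 9 and 8 in Th1 cells and 10, 7, 8 and 11 in Th2 cells, wild type before knockout, so the ranges of naive and polarized libraries did not overlap. Hk2 was the only member of 32 whose count was higher in every polarized than in every naive library, a pattern met by 6.29% of 17762 protein-coding genes. The region opened in all 8 polarized libraries, chr6:82752968-82753944, lay 21.0 kb into the gene at percentiles 62.9 to 95.1. A second, 29.6 kb into the gene, stood at 77.1 to 92.1 in the 4 Th1 libraries, at 72.2 in 1 of the Th2 wild type libraries, at 49.3 and 36.6 in Th2 knockout libraries, and had no peak in the other Th2 wild type library or in naive cells. Just upstream of the promoter, chr6:82775373-82775786 closed, at 73.5 and 75.9 in the wild type and 9.9 and 25.2 in the knockout naive libraries. Hk1, the widely expressed hexokinase, had 0 opened and 7 closed calls over the 4 comparisons of Th1 or Th2 with naive cells, and its regions numbered 4 to 6 in naive and 1 to 5 in polarized libraries. Hk3 held 1 to 3 regions in every library.

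**Figure D2:**
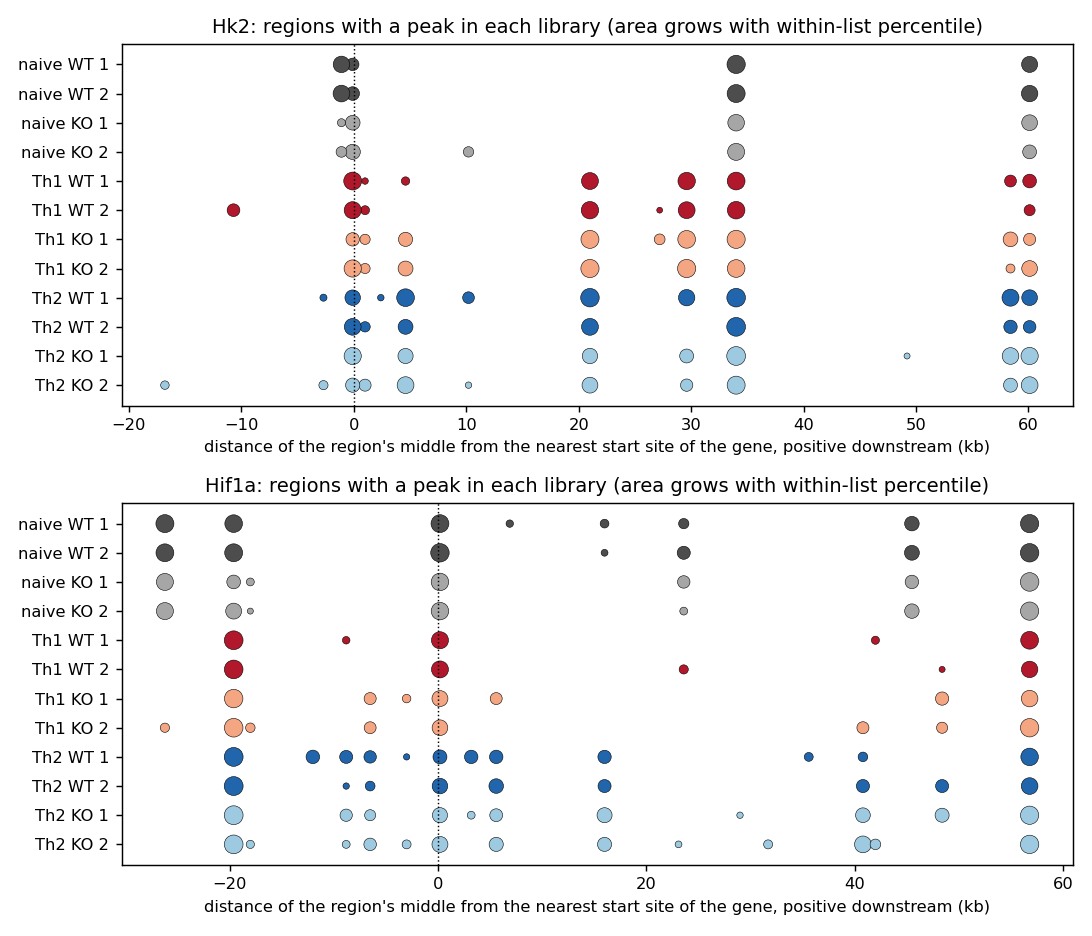
Each dot is a region with a peak in that library (rows, 12 libraries coloured by group) at its distance in kb from the nearest start site of Hk2 (top) or Hif1a (bottom), with the dot's area growing with the within-list percentile. Regions inside Hk2 at 21.0 and 29.6 kb appear only in polarized libraries, and Hif1a holds most regions in the Th2 libraries.

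Among the phosphofructokinase subunits, Pfkp, the platelet form, accounted for the openings. Its opened regions were chr13:6618614-6619160, 29.9 kb into the gene at percentiles 65.2 to 94.6, and chr13:6652396-6652971, 3.9 kb upstream at 60.9 to 87.6. Over the 4 comparisons with naive cells Pfkp had 11 opened and 6 closed calls. Pfkl, the liver form, had 0 opened and 5 closed, and its regions numbered 5 to 6 in naive and 3 to 5 in polarized libraries. Pfkm, the muscle form, and Gpi1, the isomerase before this step, had no opened call and 2 and 3 closed calls.

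The Pfkfb enzymes set the level of fructose 2,6-bisphosphate, the main activator of phosphofructokinase. Pfkfb3, the form with the strongest kinase activity, had 12 closed and 4 opened calls, and its regions numbered 10, 9, 7 and 7 in naive, 5, 4, 7 and 7 in Th1 and 5, 4, 4 and 5 in Th2 libraries. It opened at chr2:11530153-11530650, 23.5 kb into the gene, at 39.0 to 85.1. A region 1.1 kb upstream of its inner start site was among the strong peaks of all naive lists, at 87.6 to 92.9, and stood at 2.3 to 31.0 in 5 polarized libraries with no peak in the other 3. Pfkfb2, the heart form, had 7 closed and 3 opened calls. Pfkfb4 opened in a flank, chr9:109049993-109050733, at percentiles 15.3 to 74.7. That region is 17.8 kb beyond the gene and 0.8 kb from the start site of Shisa5. Pfkfb1, the liver form, held 1 to 2 regions in every library.

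From aldolase to pyruvate kinase, 11 genes held 82 regions, 51, 55, 42 and 43 of them with a peak in naive libraries and 34 to 44 in polarized libraries. Pgam1, phosphoglycerate mutase, opened at chr19:41894715-41895367, 16.8 kb upstream, at 68.7 to 93.3. The next region, 15.8 kb upstream, was open in all 12 libraries and ranked at 79.9 to 83.7 in naive and at 13.5 to 61.5 in polarized libraries. Bpgm, which makes the 2,3-bisphosphoglycerate of red cells, closed at chr6:34494977-34495500, from 88.3 and 92.0 in the wild type and 54.3 and 66.5 in the knockout naive libraries. Regions with a peak near the 6 red cell markers numbered 4 in each naive wild type, 10 to 13 in naive knockout and 2 to 6 in polarized libraries. The naive knockout libraries, with the higher marker counts, had the lower Bpgm percentiles, and the part of red cells was not tested. Eno3 closed 6.7 kb upstream at chr11:70650262-70650708, 3.2 kb from the start site of Rnf167, and Eno2 at chr6:124779417-124780040, which is the promoter of Lrrc23. At Pkm, which encodes the pyruvate kinase of most proliferating cells, no region opened or closed in all 8. A region 2.5 kb downstream of its inner start site ranked at 74.5 to 95.2 in the 8 polarized libraries. It ranked at 48.6, 54.8 and 32.9 in 3 naive libraries, with no peak in the other. The remaining genes of the segment, Aldoa, Aldoc, Tpi1, Gapdh, Pgk1 and Eno1, had 0 to 4 closed and 0 to 3 opened calls each.

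Ldha, Ldhb, Slc16a1 and Slc16a3, the lactate genes, together had 4 opened and 27 closed calls summed over the 4 comparisons with naive cells. All 32 members had 95 opened and 161 closed calls, and all regions 63460 and 65366. The comparisons share naive libraries within a genotype, and the difference was not tested. Slc16a1, the lactate and pyruvate transporter MCT1, held 6, 6, 7 and 7 regions in naive, 3, 1, 4 and 3 in Th1 and 5, 3, 3 and 3 in Th2 libraries. It was the only member whose count was lower in every polarized than in every naive library, as at 6.63% of protein-coding genes. Other settings gave up to 3 such members. Its region 7.5 kb upstream ranked at 66.3 to 89.1 in naive libraries and had a peak in 1 polarized library only, at 0.9. Ldha held 6, 7, 5 and 5 regions in naive and 4 to 6 in polarized libraries, and closed at chr7:46832118-46832507, 13.5 kb upstream, from 76.0 and 77.4 in the wild type and 31.1 and 42.6 in the knockout naive libraries. A weak region 18.7 kb upstream of Ldha was found in all 4 Th2 libraries, at 0.9 to 39.4, and in no other. With lists cut to equal length it kept a peak only in the second Th2 wild type library, at 10.0. The share of all regions found only in Th2 libraries is not given here. Ldhb, the subunit of oxidative tissues, closed far upstream at chr6:142527731-142528265, from 60.4 to 91.5.

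Pdk1, a kinase that inhibits pyruvate dehydrogenase, closed at 2 neighbouring upstream regions. The stronger, chr2:71866526-71867051, ranked at 94.7 and 94.1 in the wild type and 84.5 and 86.9 in the knockout naive libraries, and the other, chr2:71863535-71863943, at 52.6 to 77.9. A region 4.2 kb downstream of the inner start site of Pdk1 had a peak in all 4 Th2 libraries, at 35.0 to 68.2. It had a peak in 2 of the 4 Th1 libraries and in no naive library. Pdk3 held 1 to 3 regions in every library.

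Hif1a had more calls than any other member over the 4 comparisons with naive cells, with 11 opened and 11 closed. Libraries held 8, 7, 7 and 7 regions in naive, 5, 5, 7 and 8 in Th1 and 12, 9, 11 and 13 in Th2 cells. Each Th2 library thus exceeded every other library, but the share of all genes that do so is not given here. The Th2 lists were also longer than the Th1 and naive knockout lists, and the part of list length was not tested. Distances at Hif1a are from chr12:73907867, its only start site with a promoter sequence. That site lies inside the gene, whose body begins at chr12:73901324. A region 19.6 kb upstream was open in all 12 libraries and stood at 85.4 and 88.5 in the wild type and 47.7 and 67.6 in the knockout naive libraries and at 95.1 to 99.5 in the 8 polarized libraries. A region 26.2 kb upstream ranked at 78.9 to 89.5 in naive libraries and had a peak in 1 polarized library only, at 16.4. Beyond the gene, chr12:73952854-73953925 closed, from 45.8 to 57.9, and the start site of Snapc1 lies 11.1 kb from it. Inside the gene, a region 16.0 kb from the start was open in the 4 Th2 libraries at 42.2 to 59.3 and in naive wild type at 13.5 and 4.4, and in no Th1 or naive knockout library. Myc held 2 to 5 regions in naive and 3 to 4 in polarized libraries. It opened at chr15:61998468-61999279, 8.1 kb beyond the gene, at 31.0, 15.5, 15.1 and 4.7 in Th1 and 64.4, 77.5, 67.9 and 68.9 in Th2 libraries. Every Th2 value was above every Th1 value, but the share of all regions that do so is not given here. With lists cut to equal length this region was not called. The region just before Myc was open in all 12 libraries and ranked at 61.6 to 82.7 in naive and 10.9 to 56.0 in polarized libraries.

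In each separate comparison with naive cells the member share was below the share over all regions, in both directions. In wild type cells, 12 of 91 regions opened in Th1 (13.2%, against 33.3% of all regions) and 55 of 156 closed (35.3%, against 46.6%). Without the second Th1 wild type library 24 of 120 opened in Th1, and with equal lists 17 of 83 (20.5%), against 40.6% of all regions in the latter. In Th2 wild type cells 29 of 126 opened (23.0%, against 44.0%) and 51 of 156 closed (32.7%, against 42.0%). Knockout cells gave 22 of 107 opened (20.6%, against 41.7%) and 29 of 122 closed (23.8%, against 35.2%) in Th1, and 32 of 122 opened (26.2%, against 48.3%) and 26 of 122 closed (21.3%, against 33.1%) in Th2. Of the Th1 openings, 11 were shared by both genotypes, 91.7% of the wild type and 50.0% of the knockout calls. Over all regions these shares were 77.4% and 53.5%. In the other cases the wild type share was lower than over all regions, at 25.5% against 33.9% for Th1 closing, 75.9% against 79.3% for Th2 opening and 31.4% against 35.3% for Th2 closing. Th1 and Th2 share their naive libraries within a genotype, so their shares are not separate evidence. Summed over the 4 comparisons, 24 of 32 genes had more closed than opened calls, against 44.7% of protein-coding genes, 6 had more opened, against 36.6%, and 2 had as many. These sums use each naive library repeatedly, and the difference was not tested.

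**Figure D3:**
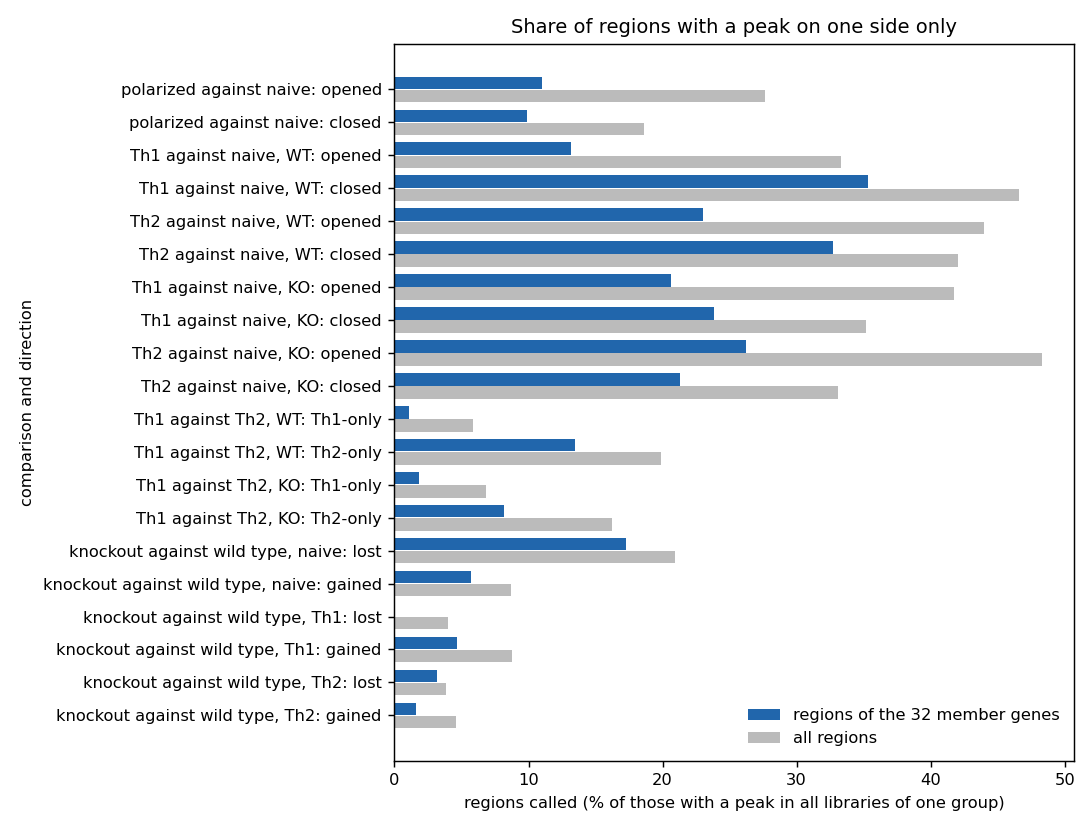
Percent of regions called in each comparison and direction, of regions with a peak in all libraries of the side that needs one, for the regions of the 32 member genes (blue) and for all regions (grey). Promoter regions are included, and with them the member share is below the share over all regions in every comparison, for example 9.91% against 18.6% for closing in all polarized libraries.

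Between the polarized states, Th2-only regions outnumbered Th1-only regions. In wild type cells 17 of 126 Th2 regions were absent from Th1 (13.5%, against 19.9% of all regions), 4 of them at Hif1a and 0 at Myc. Of 91 Th1 regions, 1 was absent from Th2 (1.10%, against 5.85%). In knockout cells these were 10 of 122 (8.20%, against 16.2%) and 2 of 107 (1.87%, against 6.82%). The Th2 lists were longer, at 51600 to 56357 peaks against 34746 to 46006 for Th1. With lists of equal length, 8 regions were Th2-only (8.99%, against 13.8% of all regions) and 4 Th1-only (4.82%, against 11.7%) in wild type cells. In knockout cells 3 were Th2-only (3.57%, against 12.6%) and 1 Th1-only (1.16%, against 11.1%).

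In naive cells losses outnumbered gains by genotype, and with lists of equal length they did not. Naive knockout libraries lacked 27 of 156 regions open in both wild type libraries (17.3%, against 20.9% of all regions), and 7 of 122 were gained (5.74%, against 8.67%). The lost regions lay at 20 genes and were mostly weak, with median percentiles of 31.9 and 34.9 in the wild type libraries against 73.3 and 73.4 for the regions not lost. Naive wild type lists held 52571 and 56195 peaks and naive knockout lists 41075 and 43823. Cutting the lists to equal length gave 9 losses (8.11%, against 12.5% of all regions) and 10 gains (9.62%, against 13.0%), and 6 of the 27 losses were called in both settings. Outside promoters the naive loss was 25.5% of member regions against 24.6% of regions near protein-coding genes. Naive gains were 14 of 138 regions (10.1%) without the first naive knockout library and 14 of 140 without the second. The share over all regions is not given for these 2 settings. Peaks on the Y chromosome numbered 22 and 20 in the wild type and 10 and 9 in the knockout naive lists, which bears on the X-linked members Pgk1, Pdk3 and Pfkfb1. Of these Pgk1 held 2 of the 27 losses, and together with the B cell and red cell markers above the part of these differences was not tested.

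By the replicate numbers in the titles, the genotype comparison within polarized cells rests on 2 biological replicates a group. For Th2 this also rests on grouping the knockout libraries by source name. The naive comparison rests on technical replicates, so the naive and polarized counts are not set against each other. In Th1 cells 0 of 91 regions were lost, against 3.96% of all regions, and 5 of 107 were gained (4.67%, against 8.76%). In Th2 cells 4 of 126 were lost (3.17%, against 3.83%) and 2 of 122 gained (1.64%, against 4.56%). Outside promoters the Th2 loss was 5.33% of member regions against 4.67% of regions near protein-coding genes. Across the 3 cell states Pfkfb3 had most genotype calls, with 3 regions lost and 1 gained in naive cells, and Hif1a, Hk1 and Slc16a1 followed with 3 each. At Hif1a a region was gained in Th1 knockout libraries, at 34.8 and 33.6. It overlaps the start of the gene body, 6.5 kb upstream of the start site with a promoter sequence. This region was also open in all 4 Th2 libraries at 19.4 to 38.2. At Hk1 a region 12.7 kb downstream of the inner start site was lost in Th2 knockout cells, from 41.4 and 11.4. It was open in all 4 naive libraries at 59.1 to 71.5. Slc16a1 had 2 regions gained and 1 lost in naive knockout cells.

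Promoter strength was compared as a percentile among the 6958 protein-coding promoter regions with a peak in all 12 libraries, which include 27 of the members'. Slc2a1 was the only member promoter that ranked higher in every polarized than in every naive library, against 5.35% of promoters. It stood at 14.2, 14.4, 26.6 and 16.6 in naive, 70.1, 67.8, 49.6 and 54.3 in Th1 and 37.2, 46.3, 40.3 and 60.1 in Th2 libraries, wild type before knockout. Ranked instead among all peaks of equal lists, its naive and polarized ranges overlapped, since naive knockout reached 65.3 and Th2 wild type began at 50.8. The Hk2 promoter ranked at 6.7 to 14.7 in naive libraries and at 17.7 to 68.8 in 7 polarized libraries, with 1 Th1 knockout library at 9.1.

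Promoters of Pfkfb2, Pfkfb3 and Pgk1 ranked lower in every polarized than in every naive library, 3 of 27 against 5.12% of promoters. Pfkfb2 ranked at 79.0 to 88.3 in naive and 10.4 to 63.6 in polarized libraries. Pfkfb3, at its outer promoter, ranked at 34.0 to 53.0 in naive and 0.7 to 22.1 in polarized libraries. Pgk1, phosphoglycerate kinase, ranked at 77.9 to 84.9 and 52.2 to 74.1, and came nearest of the 3 to an overlap. The Hif1a promoter was lower in all 4 Th2 libraries, at 15.1 to 36.7, than in any naive library, at 48.7 to 82.1, and the Th1 libraries, at 25.7 to 51.5, overlapped both. Within a single genotype, Th2 ranked below naive at 30.3% of all promoters in wild type and 26.8% in knockout cells. The share for both genotypes together is not given here. Ranked among all peaks of equal lists, 0 of 18 member promoters were higher and 5 lower, against 1.03% and 11.2% of promoters.

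**Figure D4:**
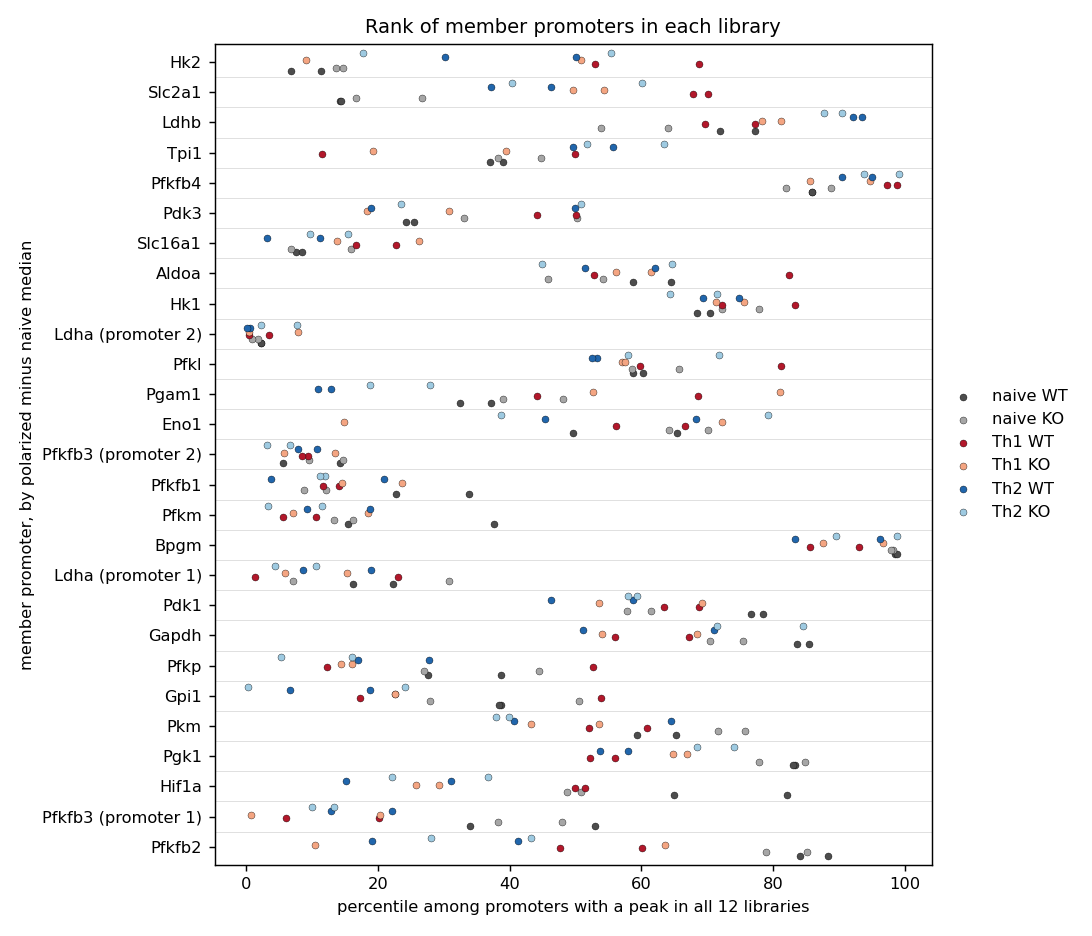
Percentile of each member promoter among promoters with a peak in all 12 libraries, 1 dot per library coloured by group; rows are the 27 member promoter regions ordered by polarized minus naive median. Slc2a1 has every polarized library above every naive library, and Pfkfb2, Pfkfb3 (promoter 1) and Pgk1 the reverse, whereas most other rows overlap.

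At Pgam1 the states parted. Its promoter ranked at 37.2 and 32.5 in the wild type and 39.0 and 48.1 in the knockout naive libraries, at 68.6, 44.2, 81.0 and 52.6 in Th1 and at 10.8, 12.9, 27.9 and 18.7 in Th2 libraries. Th1 was thus above and Th2 below naive in both genotypes, at 1 of 27 member promoters against 0.216% of all promoters. Ranked among all peaks of equal lists, the Th1 knockout values, 91.4 and 76.9, overlapped the naive knockout values, 74.2 and 79.8, and the Th2 values stayed below, at 11.8 to 43.6 against 52.6 to 79.8. The promoter of Ldhb was higher in the 4 Th2 libraries, at 87.7 to 93.6, than in naive libraries, at 53.8 to 77.3. Within a single genotype, Th2 ranked above naive at 31.9% of all promoters in wild type and 25.8% in knockout cells. The share for both genotypes together is not given here.

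By genotype, the ranks depended on how they were taken. In naive cells 6 of 27 ranked higher and 8 lower in both knockout than in both wild type libraries, against 29.6% and 27.2% of all promoters. Ranked among all peaks of equal lists, 11 of 18 were higher and 3 lower in naive cells, against 66.1% and 6.71% of promoters. In Th1 cells 3 of 27 were higher and 6 lower, against 16.3% and 17.3%, and 2 and 7 of 18 with equal lists, against 14.1% and 18.9%. In Th2 cells 5 were higher and 4 lower, against 15.9% and 16.6%, and 4 and 1 of 18 with equal lists, against 15.8% and 16.5%.

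Other genes of the pathway, from lists chosen with earlier results of these data known, are given by count for the comparison of all polarized with all naive libraries. Partners and regulators of Hif1a and Myc, 16 genes, had 5 of 46 opened and 3 of 48 closed, and 3 of the opened regions were at Epas1, the paralog of Hif1a. The 8 pentose phosphate genes had 0 of 17 opened and 2 of 23 closed. The 9 genes of mitochondrial pyruvate import or of pyruvate dehydrogenase and its phosphatases had 4 of 19 opened and 0 of 18 closed. Genes of mTOR and AMPK signalling or linked to it, 10 in all, had 2 of 30 opened and 2 of 32 closed. These counts read against the same 27.6% and 18.6% of all regions. Max, the partner of Myc, had 2 of the closed regions, and its regions numbered 4 to 7 in naive and 2 to 4 in polarized libraries.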

How the data were processed

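ATAC-seq peak lists of 12 mouse CD4+ T cell libraries were used as deposited. Reads were aligned with BWA, handled with Picard and called with MACS2 on GRCm38, per the submitters' processing notes; their versions are not given in the labels or lists, and each list is 1 library. The deposited lists have 9 columns and no header: positions, a name, a score, a strand, a fold enrichment (ratio), and −log10 p and −log10 q. The deposited score is 10 times −log10 q, to within 1, and the lowest deposited −log10 q is 1.00. The fold ratio was used only to order tied peaks.

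Peaks on chromosomes 1 to 19 and X were merged where they overlapped by 1 bp or more. A library has a region where any of its peaks lies in it, and its percentile is the best of those peaks within the list. Promoters are 250 bases before to 50 after RefSeq start sites; gene bodies are RefSeq GRCm38.p6, and all 32 members were found there. A promoter in the rank comparison needed a peak in all 12 libraries, which 27 of 30 member promoter regions had. Distances from a member's start are from its nearest start site with a promoter sequence, which can lie inside the gene. Calls were checked on simulated lists of 5000 regions for polarized against naive, where all 200 planted openings and all 200 planted closings were called and 0 others. No test was run, although limma on ranks was considered, since scores compare only within a list. Members and lists were chosen with earlier results of these data known. A planned gene list is not reported here. Values per library are given for Slc2a1, Slc2a3, Hk2, Pfkfb3, Ldha, Pkm, Hif1a and Myc, for the 2 members of each role with most calls against naive cells, and for those with most genotype calls. Alternatives were lists cut to 34746 peaks, a −log10 q of 2 or more, 50% cover of a region, windows of 5 kb and leaving out each library. Python 3.11.15, numpy 2.4.6, pandas 2.3.3 and matplotlib 3.10.9 were used.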

Additional observations from a re-analysis of the deposited data

Results flagged for a closer look

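Promoter ranks of 10 members moved in opposite directions under the same contrast in different groups, with every library of one group on one side and every library of the other on the opposite side. The same happened at 24.1% of all 6958 promoters compared, against 10 of 27 member promoters. None of these differences was tested, and with 2 libraries a group the values describe these libraries only. For Pgam1 the median rank in Th1 minus naive was 21.6 in wild type and 23.2 in knockout cells, and in Th2 minus naive −23.0 and −20.2 percentile points. The others are knockout minus wild type. For Pfkl it was −13.2 in Th1 and 12 in Th2 cells. In naive and in Th1 cells it was 7.3 and −17.0 for Slc2a1, 5.1 and −30.9 for Hk2, 16.8 and −22.5 for Pdk3 and −17.8 and 6.3 for Pfkfb1. In naive and in Th2 cells it was −11.5 and 16.9 for Gapdh, 11.4 and −13.7 for Pkm and −1.0 and 4.6 for Ldha, at its inner promoter. The values of that promoter all lie in the lowest 7.9 percentiles. For Ldhb it was −15.7 in naive, 6.3 in Th1 and −3.8 in Th2 cells. The naive libraries are technical replicates of 1 sample per genotype, so a naive genotype difference cannot be told from a difference between samples. An opposite sign in naive and polarized cells therefore does not show that the genotype acts differently in them.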

How the results depend on the processing

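No paired analysis was possible because the results are counts of peaks present or absent and come from no test. With lists of equal length, naive losses were 8.11% of member regions, Th2-only regions in knockout cells 3.57%, Th2 gains 0%, and the genes with fewer regions in every polarized library numbered 3. With 50% cover, closing was 49.6% in Th1 wild type, 34.4% in Th1 knockout and 30.2% in Th2 knockout cells, Th2-only regions in wild type cells 25.7%, Th1 losses 4.55% and Th1 gains 16.5%, and 2 genes had fewer regions in every polarized library; at a −log10 q of 2 or more 3 did, and without both Th2 knockout libraries 2. In windows of 5 kb, Th1-only regions in wild type cells were 0%. Outside promoters, opening was 25.7%. Ranked among all peaks of equal lists, 0 of 18 member promoters were higher and 5 lower in polarized libraries, and by genotype 11 higher and 3 lower in naive and 1 lower in Th2 cells. Shares over all regions are not given for 50% cover, a −log10 q of 2 or more or windows of 5 kb. Values under these settings describe the member regions only. The cause of these shifts was not tested.

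Leaving out each library in turn gave 37.4% to 45.5% for Th1 closing in wild type, 2.2% to 8.57% and 15.9% to 28.6% for Th1-only and Th2-only regions in wild type, and 3.74% to 8.59% and 11.5% to 20.1% in knockout cells. It gave 1.1% to 10.8% for Th1 losses, 8.41% to 15.9% for Th1 gains, 6.29% to 9.52% for Th2 losses and 4.92% to 10.7% for Th2 gains. Member promoters higher in polarized libraries numbered 1 to 2, and genes with fewer regions 1 to 3. By genotype, promoters higher and lower in the knockout numbered 7 to 12 and 9 to 13 in naive, 5 to 9 and 8 to 12 in Th1, and 9 to 14 and 5 to 9 in Th2 cells. Without the first Th1 wild type library, Th1-only and Th2-only regions in wild type cells reached 8.57% and 28.6%, and Th1 gains 15.9%. Without the second, Th1 losses reached 10.8%. Without the first Th2 knockout library, Th2 losses, Th2 gains and Th2-only regions in knockout cells reached 9.52%, 10.7% and 20.1%, and without the first Th1 knockout library Th1-only regions there reached 8.59%. Of the shifts inside the counting interval, 32 were over 1.5 times: closing in all polarized libraries reached 16.7% with 50% cover, Th1 opening in wild type cells 20.5% with equal lists, and naive gains spanned 2.60% in windows of 5 kb to 10.1% without the first naive knockout library. A call resting on 1 library of a side is easier to meet at any region, and fewer than 2 libraries a side leave no replicate check. Shares over all regions are not given for lists with a library left out. These ranges therefore describe the member regions only and are not set against the shares over all regions above. Peak lists carry no depth, so a missing peak can be an open region under the caller's threshold.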
